A study of Brassica napus with 18 samples.

Results

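Expression is described here along chromosomes A02 and C02 of oilseed rape (Brassica napus), beyond the starts of both chromosomes. The members are the 3637 gene models of A02 with a gene number above 800, up to gene 4203, and the 4782 gene models of C02 with a gene number above 1000, up to gene 5574. Together they make 8419 of the 107233 gene models in the deposited table. The gene number is the running number that the identifiers give along each chromosome, and positions are given in it because base-pair coordinates were not used here. The bounds were chosen by measured values, namely by where shifts between haplotype 1 and haplotype 2 accessions at the chromosome starts ended in an earlier scan of these counts. Differences between the haplotypes, and those of a haplotype 1 accession from haplotype 2, are therefore given as descriptions without a test. Of the members, 6056 had a count in at least 1 library, 2363 were at 0 in all, and 4341 (1939 on A02 and 2402 on C02) passed the filter on low counts.

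The study sequenced poly(A)-selected RNA from shoot apices of field-grown plants. Haplotype 1 of BnaC3.LFY is carried by R5044, R5159 and R5161, and haplotype 2 by R4168, R4210 and R4817. BnaC3.LFY is the C03 copy of LEAFY, which gives floral identity to young meristems. Each of the 6 accessions has 3 libraries. The labels do not say whether these came from separate plants, so p-values measure only the spread between these libraries, which may be technical. Each haplotype is represented by its own accessions, so the haplotype and the remaining genetic background cannot be told apart. The identifiers carry no gene names and 0 of the members matched the name table at hand, so the tissue could not be checked by its marker genes and roles of single genes are not given.

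Oilseed rape is an allotetraploid that joined the genome of a Brassica rapa ancestor, the A subgenome, with that of a Brassica oleracea ancestor, the C subgenome. Most genes thus have a homoeolog, a related copy on the matching chromosome of the other subgenome, and A02 and C02 are such a pair over much of their length. In this species matching stretches of A and C chromosomes can be exchanged or lost, and a plant with a replaced stretch carries extra copies of one homoeolog and lacks the other. RNA counts do not measure gene copies, and no DNA data were used here. Reads from similar A and C copies may also be shared between them, since the sources used here do not give how reads with several alignments were counted. A02 and C02 stretches are set side by side here only by their gene numbers, not gene by gene.

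The total count per library ranged from 21960992 to 41459636. The members took 4.73%, 6.22% and 5.48% of it in R5044 replicates 1, 2 and 3, and 6.07% to 6.55% in each of the other 15 libraries. The 3 libraries of R5044 stood apart from each other on this chromosome pair. The summed level of the whole of C02, in CPM (counts scaled to a common library total), was 2.45 times as high in the highest as in the lowest R5044 library. That ratio was 1.02 for A02 and 1.01 to 1.08 for the 17 other chromosomes of R5044, and 1.03 to 1.10 for C02 in the other accessions.

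The difference between the R5044 libraries covered C02 beyond gene 2700. Summed over these 3014 gene models, replicates 1, 2 and 3 of R5044 had 10031, 27881 and 19018 CPM, a highest to lowest ratio of 2.78. The libraries of R5159 had 18442 to 19151 CPM, those of R5161 18132 to 19009 CPM, and those of the haplotype 2 accessions 18261 to 20661 CPM, with highest to lowest ratios of 1.03 to 1.06 within each of these 5 accessions. Replicate 1 of R5044 was thus below, and replicate 2 above, all 15 libraries of the other accessions, while replicate 3 lay among them. Relative to the mean of R5159 and R5161, the sums were 0.534, 1.48 and 1.01 times in replicates 1, 2 and 3.

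On A02 the order of the R5044 libraries was turned round. Over the 2456 gene models beyond gene 1900, replicates 1, 2 and 3 had 20416, 11716 and 15979 CPM, or 1.03, 0.594 and 0.81 times the mean of R5159 and R5161. The highest to lowest ratio was 1.74 in R5044 and 1.01 to 1.02 in the other accessions. The A share, meaning the A02 sum as a percentage of the A02 and C02 sums over these 2 stretches, was 67.1%, 29.6% and 45.7% in replicates 1, 2 and 3 of R5044, against 46.5% to 52.0% in the other 15 libraries. The A02 and C02 sums did not fully offset each other. Together they came to 30447, 39598 and 34997 CPM in R5044, or 0.79, 1.03 and 0.908 times the mean of R5159 and R5161. The order of the R5044 libraries on A02 changed only near gene 2000. Summed beyond gene 2000, replicates 1, 2 and 3 had 19379, 10398 and 14798 CPM on A02, a highest to lowest ratio of 1.86. With C02 beyond gene 2700 the A shares were then 65.9%, 27.2% and 43.8%, against 45.3% to 51.0% in the other 15 libraries.

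The library differences ran along C02 in every window and along A02 in all but 1. In all 29 windows of 100 gene numbers beyond C02 gene 2700, the window median was lowest in replicate 1 of R5044 and highest in replicate 2. Relative to the mean of R5159 and R5161, on log2(CPM + 0.1), these medians were -1.02 to -0.34 in replicate 1, 0.43 to 0.88 in replicate 2 and -0.07 to 0.40 in replicate 3. On A02 beyond gene 1900 the order was the reverse in 22 of 23 windows, with a middle value of 0.09 in replicate 1, -0.71 in replicate 2 and -0.19 in replicate 3. Single genes showed it too: of 969 C02 genes beyond 2700 with at least 1 CPM in R5044, 884 (91.2%) had replicate 1 lowest and replicate 2 highest, against 22.7% of 37776 such genes on the other chromosomes of R5044 and 7.24% to 26.7% of the C02 genes in the other accessions. Of 828 A02 genes beyond 2000, 665 (80.3%) had replicate 1 highest and replicate 2 lowest, against 23.2% on the other chromosomes of R5044.

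**Figure D1:**
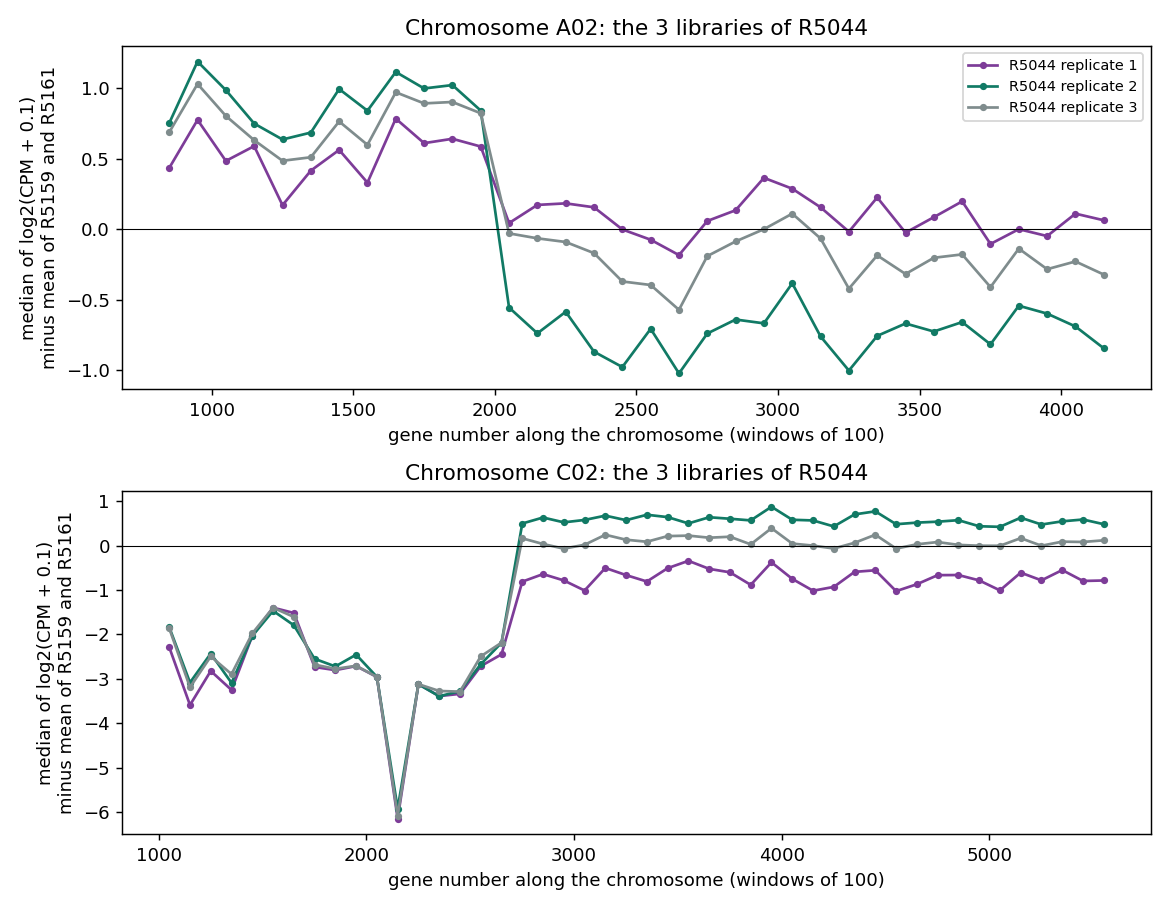
Window medians of each R5044 library minus the mean of R5159 and R5161, on log2(CPM + 0.1), against the gene number on A02 (top) and C02 (bottom), in windows of 100 gene numbers. Beyond C02 gene 2700 replicate 1 lies at -1.02 to -0.34 and replicate 2 at 0.43 to 0.88 in all 29 windows, and on A02 the order turns round near gene 2000.

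Replicate 2 set against replicate 1 of R5044 places the edges of these stretches without any other accession. The split of the gene-wise differences into a pair of levels with the smallest absolute deviations fell between C02 genes 2684 and 2686, with a median difference of 0.00 over the 914 genes before, many of them at or near 0 in R5044, and 1.37 over the 1488 genes after. The libraries differed before the step as well: over the 205 C02 genes from above 1000 to 2700 with at least 1 CPM in R5044 the median difference was 0.48, and 98 (47.8%) had replicate 1 lowest and replicate 2 highest. On A02 it fell between genes 2016 and 2017, with 0.37 over the 738 genes before and -0.85 over the 1201 after. This comparison of libraries was made after their values had been seen, and it compares single libraries, so it has no test. Its cause was not tested. In bulk tissue, fewer cells of a type and less RNA per cell cannot be told apart either.

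Along C02 from above gene 1000 to gene 2700, R5044 was far below the haplotype 2 accessions throughout. Each window median here is the difference of an accession from the mean of the 3 haplotype 2 accessions, or from the other 2 for a haplotype 2 accession, on log2(CPM + 0.1), where differences of genes with few counts come out too small. In R5044 the 17 windows lay at -5.80 to -2.05, with a middle value of -3.28. The window with the lowest value, genes 2101 to 2200, was below its neighbours in each of the 3 libraries. In R5159 the 17 windows lay at -2.95 to 0.23 with a middle value of -0.22, and in R5161 at -1.20 to 0.37 with -0.07. The windows of the 3 haplotype 2 accessions lay between -0.38 and 0.51. At or below -1 were 17 windows of R5044, 3 of R5159, 1 of R5161 and 0 of the haplotype 2 accessions.

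Along A02 from above gene 800 to gene 1900 the difference of R5044 had the opposite sign and was smaller. Its 11 windows lay at 0.49 to 1.31, with a middle value of 1.01, and all 11 were at or above 0.4. R5159 lay at -0.21 to 1.36 with a middle value of 0.16 and had 1 such window, and R5161 lay at -0.35 to 0.46 with 0.13 and had 3. The windows of the haplotype 2 accessions lay between -0.16 and 0.21. Per library, relative to the mean of R5159 and R5161, the 11 windows of R5044 had middle values of 0.56, 0.99 and 0.76 in replicates 1, 2 and 3, in that order of height in every window.

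**Figure D2:**
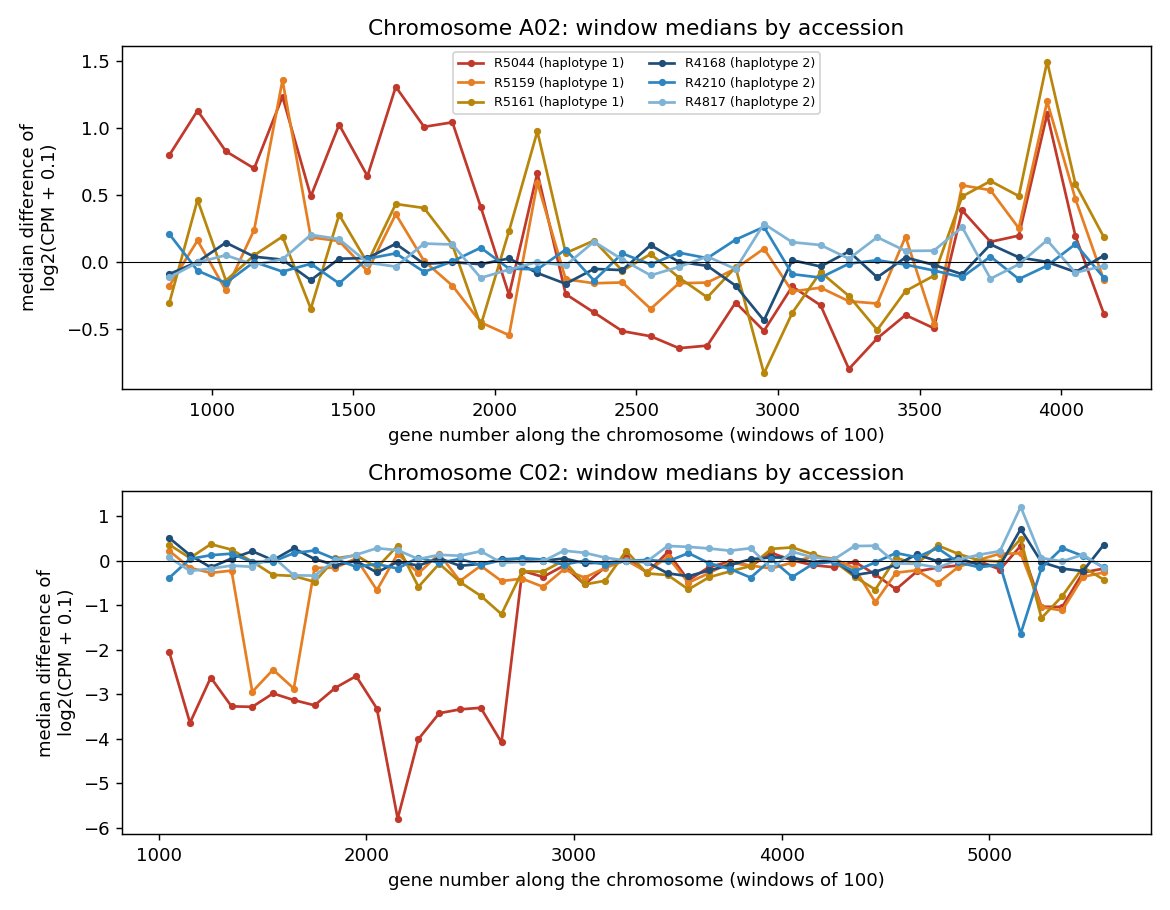
Median difference of log2(CPM + 0.1) in windows of 100 gene numbers along A02 (top) and C02 (bottom) for the 6 accessions, with haplotype 1 accessions set against the mean of haplotype 2 and haplotype 2 accessions against the other 2. R5044 lies at -5.80 to -2.05 over C02 genes above 1000 to 2700 and at 0.49 to 1.31 over A02 genes above 800 to 1900, while the dip of R5159 spans C02 genes 1401 to 1700 and that of R4210 falls at C02 genes 5101 to 5200.

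The bounds themselves fell where the accessions part. In the last C02 window before the bound, genes 901 to 1000, R5044 had a median of -2.82, R5159 of -5.64 and R5161 of 0.13, and in the window just inside it, genes above 1000 to 1100, they were -2.05, 0.23 and 0.36. On A02 the window of genes 701 to 800 had 0.70 in R5044, 0.98 in R5159 and 0.46 in R5161, and that of genes above 800 to 900 had 0.80, -0.18 and -0.31. R5159 and R5161 were thus at or past the end of their run at both bounds, and R5044 continued across them.

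In R5044 the unbroken run of windows at or below -1 on C02 ended at gene 2700, and that at or above 0.4 on A02 ended at gene 2000. Both ends depended on settings. With a pseudocount of 1 the C02 run had no length, since the window next to the bound missed the threshold, and the A02 run ended at gene 1300. The A02 run ended at gene 900 with no filter on low counts and at gene 1300 with a threshold of 0.6. The C02 end was sharp at the level of genes, though the split was placed by the same values that the counts beside it use. The 2-level split of R5044 against haplotype 2 fell between genes 2681 and 2684, with a median of -3.20 before and -0.17 after. The level after the split turned with the library, at 0.22 without replicate 1 of R5044, -0.48 without replicate 2 and -0.26 without replicate 3, while that before stayed at -3.22 to -3.18. Of 54 genes numbered 2582 to 2681, 53 were at or below -1 (median -4.12), and of 46 genes numbered 2684 to 2783, 10 were (median -0.22). With 1 R5044 library left out these numbered 51 to 53 and 8 to 15, and the median after the step was 0.14 without replicate 1 and -0.51 without replicate 2. Against the mean of R5159 and R5161 the split fell between genes 2679 and 2680, with -2.65 before and -0.02 after (0.33 after it without replicate 1 and -0.31 without replicate 2). With any single R5044 library left out the split against haplotype 2 stayed at gene 2681.

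The A02 end was less sharp. Against haplotype 2 the split fell between genes 2141 and 2143, with a median of 0.83 before and -0.30 after, the second of which was -0.50 without replicate 1 of R5044 and -0.06 without replicate 2. The last gene before the split was then 2135 and 2141. A short group of A02 genes, numbered 2087 to 2135, was high in R5161 too (median 2.92 over 28 genes), as was that of genes 2106 to 2135 in R5159 (median 3.52 over 20 genes). Against the mean of R5159 and R5161 the split of R5044 fell between genes 2015 and 2016, with 0.74 before and -0.27 after (-0.46 after it without replicate 1 and -0.03 without replicate 2). That lies next to the step between replicates 2 and 1 of R5044, at genes 2016 and 2017. Without replicate 2 of R5044 the run of windows ended at gene 1500.

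Within haplotype 1, R5044 differed from the mean of R5159 and R5161 in many members. This contrast leaves out haplotype 2, whose libraries still entered the filter, the scaling and the estimate of spread. With edgeR's quasi-likelihood test and a Benjamini-Hochberg adjusted p under 0.05 over 58143 tested genes, 708 of 2402 C02 members (29.5%) were lower and 159 (6.62%) higher, where the whole table had 7.88% lower and 11% higher. On A02, 438 of 1939 members (22.6%) were higher and 208 (10.7%) lower. The median log2 fold change was -0.33 over the C02 members and 0.00 over the A02 members, beside 0.02 over all tested genes. The extent of R5044 was known from earlier results, and the stretches below were bounded by its own values, so counts within them describe where the calls lie.

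Of the 708 lower C02 calls, 652 lay among the 917 tested genes from above 1000 to 2700 (14 higher, median log2 fold change -4.55), and 56 among the 1485 beyond (145 higher, median 0.02). Of the tested genes, 71.1% were lower and 1.53% higher in the first stretch, and 3.77% lower and 9.76% higher beyond. The whole table had 7.88% lower and 11% higher. In C02 genes 1401 to 1700, where R5159 was itself low and lowers the mean that R5044 is set against, 70 of 153 tested genes were lower (45.8%, median -2.68). With 1 R5044 library left out, 612 to 622 genes of the first of these stretches were lower. Beyond gene 2700 the balance of calls turned with the library: 228 were higher and 32 lower without replicate 1, 96 higher and 108 lower without replicate 2, and 109 higher and 34 lower without replicate 3. On A02, 316 of 673 tested genes from above 800 to 1900 were higher and 22 lower (median 0.76), with 256 to 307 higher when 1 R5044 library was left out. Of the 1266 beyond gene 1900, 122 (9.64%) were higher and 186 (14.7%) lower (median -0.26). These lower ones numbered 279 without replicate 1, 85 without replicate 2 and 105 without replicate 3. From above 800 to 1900 the shares were 46.95% higher and 3.27% lower. No share over the whole table is given for the fits with 1 library left out. Whether calls elsewhere turned likewise is thus not shown.

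The C02 genes of R5044 did not share a common ratio. Among 620 C02 genes from above 1000 to 2700 with at least 1 CPM in the mean of R5159 and R5161, 181 (29.2%) had 0 counts in all 3 R5044 libraries. A count of 0 over these libraries allows a level of up to 0.0287 CPM (3 counts), counting error only. In all, 438 (70.7%) were under 0.125 times the level of those accessions, 139 (22.4%) between 0.125 and 0.5, 40 (6.45%) between 0.5 and 1.5, and 3 at 1.5 or more. The median ratio was 0.0187, with quartiles at 0 and 0.164, and it was 0.0136, 0.0188 and 0.0171 in replicates 1, 2 and 3. Beyond gene 2700 the ratios depended on the library. Of 959 genes there, 486, 446 and 754 were between 0.5 and 1.5 in replicates 1, 2 and 3, with median ratios of 0.507, 1.48 and 1.01. Between 0.125 and 0.5 were 410, 25 and 44 genes, and at 1.5 or more 14, 454 and 127. The mean of the 3 libraries has 779 genes (81.2%) between 0.5 and 1.5, more than any single library.

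Most A02 genes of R5044 next to the bound had a ratio above 1, over a wide range. Of 527 genes from above 800 to 2000, 303 (57.5%) were at 1.5 or more and 198 (37.6%) between 0.5 and 1.5, with a median of 1.60 and quartiles at 1.13 and 2.04. The median was 1.35, 1.845 and 1.62 in replicates 1, 2 and 3. Beyond gene 1900 it was 1.03, 0.539 and 0.8 in these libraries. The higher level of A02 next to the bound thus lay in many genes at once, with 5 of the 527 genes at 0 counts in R5044.

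**Figure D3:**
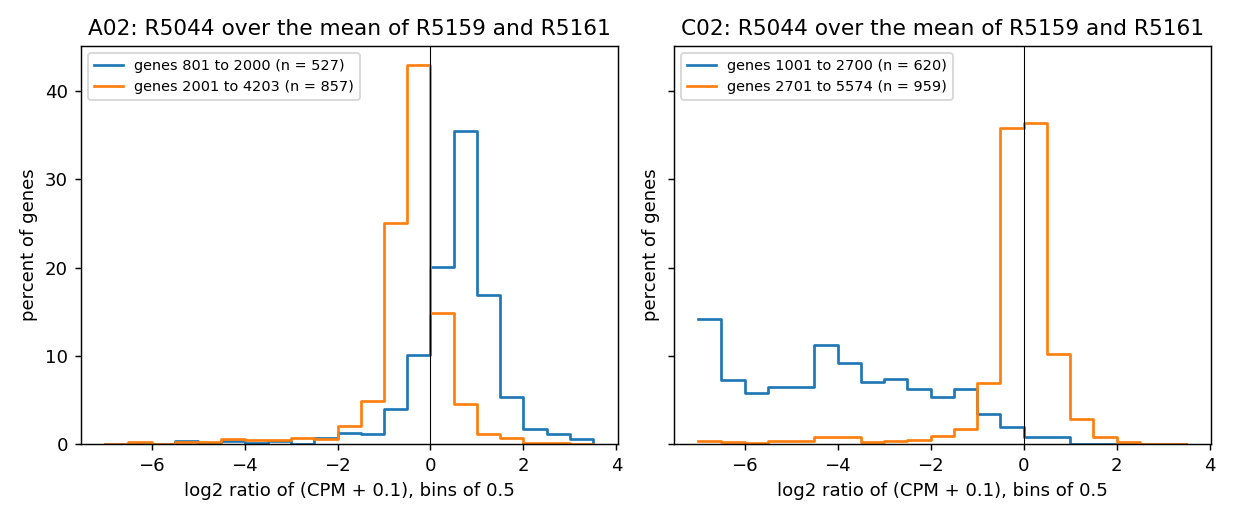
Percentage of genes by the log2 ratio of (CPM + 0.1) in R5044 over the mean of R5159 and R5161, in bins of 0.5, with R5044 as the mean of its 3 libraries, for the stretch next to the bound and the rest of A02 (left) and C02 (right). The 620 C02 genes from above 1000 to 2700 spread over all low ratios, while the 527 A02 genes from above 800 to 2000 have a median ratio of 1.60.

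Of the called genes, the 2 most abundant lower ones on C02 and the 2 most abundant higher ones on A02 serve as examples. They were picked by abundance and do not show the range. Both C02 genes fell less than the median log2 fold change of -4.55 over the tested genes from above 1000 to 2700. The A02 genes lay near the median of 0.76 over the tested genes from above 800 to 1900. BnaC02T0120000ZS, gene 1200 of C02, had 56.8, 97.9 and 77.4 CPM in the R5044 libraries, against 526, 464 and 501 CPM in R5159, 597, 676 and 645 CPM in R5161, and 342 to 586 CPM in the haplotype 2 libraries. All 3 R5044 libraries lay below all 15 others (log2 fold change -2.90, SE 0.156, edgeR adjusted p = 3.54e-10). BnaC02T0100800ZS, gene 1008, had 343, 428 and 391.6 CPM in R5044, against 360 to 556 CPM in R5159 and 529 to 631 CPM in R5161. R5044 overlapped R5159 there, its log2 fold change was -0.46 (SE 0.121, edgeR adjusted p = 0.0117), and the call was lost without R5044 replicate 1 (edgeR adjusted p = 0.081) or replicate 3 (0.0521). The haplotype 2 accession R4210 had the lowest level of this gene, 161 ± 20.5 CPM (SD, n = 3 libraries).

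BnaA02T0099300ZS, gene 993 of A02, had 725, 861 and 871 CPM in R5044, against 449 to 498 CPM in R5159 and 448 to 508 CPM in R5161. Its log2 fold change was 0.76 (SE 0.0965, edgeR adjusted p = 1.68e-05), and the 9 haplotype 2 libraries were lower still, at 237 to 301 CPM. BnaA02T0159000ZS, gene 1590, had 456, 724 and 549 CPM in R5044, against 265 to 331 CPM in R5159 and 303 to 365 CPM in R5161 (log2 fold change 0.82, SE 0.155, edgeR adjusted p = 0.000908). Here the haplotype 2 libraries, at 434 to 689 CPM, overlapped R5044.

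The A to C balance followed the windows. Over A02 genes above 800 to 1900 R5044 summed to 17064 ± 2474 CPM, R5159 to 11933 ± 137 CPM and R5161 to 9945 ± 325 CPM, against 10088 ± 115 in R4168, 9451 ± 252 in R4210 and 9875 ± 436 in R4817 (SD, n = 3 libraries each). Over C02 genes above 1000 to 2700 R5044 summed to 2701 ± 380 CPM, R5159 to 12820 ± 335 CPM and R5161 to 15231 ± 538 CPM, against 16389 ± 108 in R4168, 14861 ± 400 in R4210 and 15234 ± 1265 in R4817. R5044 had the highest A02 and the lowest C02 sums of all accessions in each of its libraries. R5159 came next on both chromosomes, and R5161 lay among the haplotype 2 accessions.

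For these stretches R5044 had an A share of 86.3% ± 0.19, R5159 of 48.2% ± 0.483 and R5161 of 39.5% ± 0.0767, against 38.1% ± 0.423 in R4168, 38.9% ± 0.0684 in R4210 and 39.4% ± 0.922 in R4817. In R5044 it was 86.2%, 86.3% and 86.5% in replicates 1, 2 and 3, although the A02 sums were 14542, 19488 and 17161 CPM and the C02 sums 2337, 3095 and 2672 CPM. The A share thus stayed within a narrow range while both sums differed between the R5044 libraries in the same order. Added together, A02 and C02 came to 0.676, 0.905 and 0.794 times the mean of R5159 and R5161 in replicates 1, 2 and 3.

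Beyond A02 gene 1900 and C02 gene 2700 the A share was 51.2% ± 0.742 in R5159 and 51.3% ± 0.453 in R5161, against 49.1% ± 0.748 in R4168, 48.8% ± 0.253 in R4210 and 47.5% ± 0.881 in R4817. The mean of R5044, 47.4% ± 18.8, describes none of its libraries. With 1 R5044 library left out the mean ranged from 37.6% to 56.4%.

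**Figure D4:**
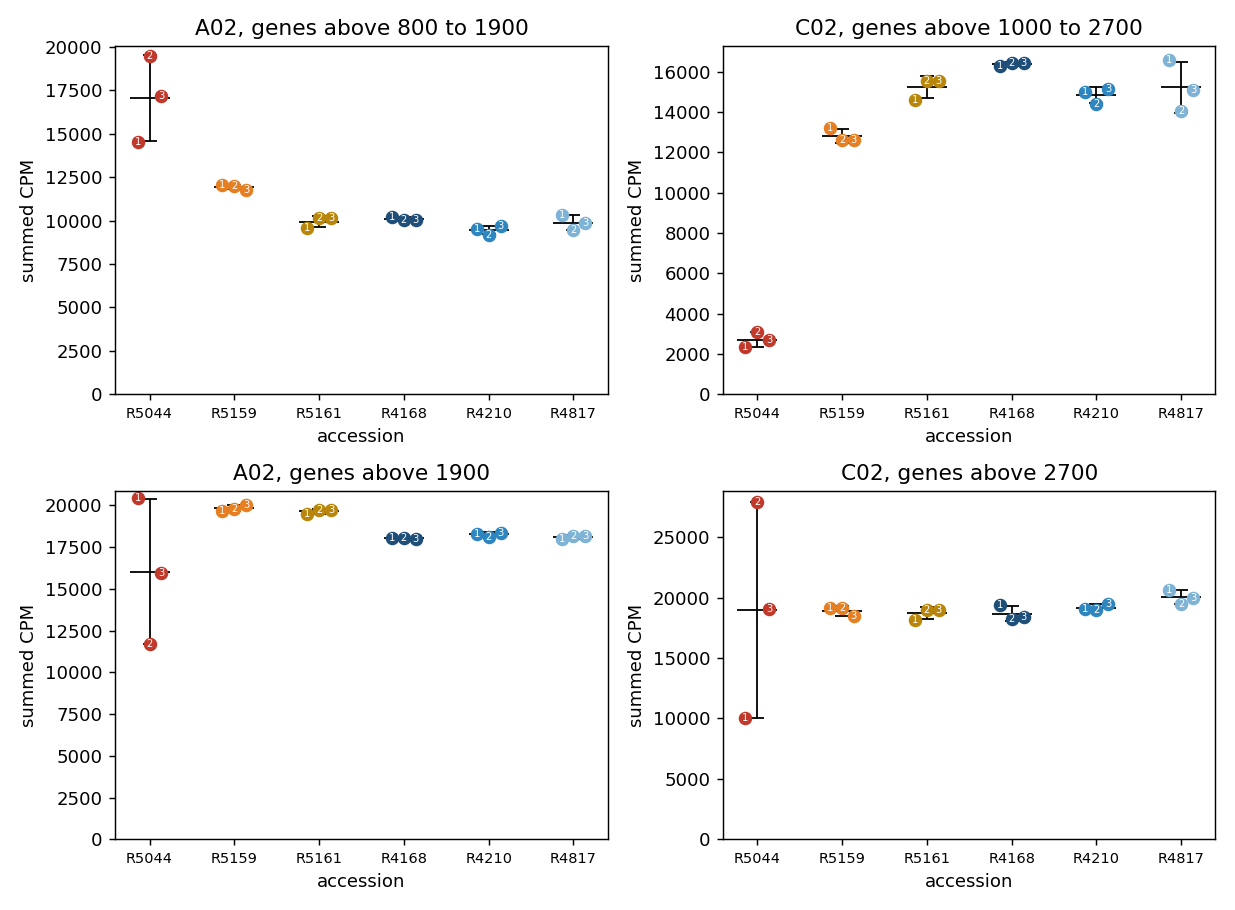
Summed CPM of A02 genes above 800 to 1900, C02 genes above 1000 to 2700, A02 genes above 1900 and C02 genes above 2700 in each library, with points numbered by replicate and bars giving the mean and SD of 3 libraries per accession. R5044 is high on A02 and low on C02 in the upper panels, and its libraries spread from 10031 to 27881 CPM in the lower right panel.

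The sums were tested only for contrasts within a haplotype, in 24 two-sided exact permutation tests over libraries with Benjamini-Hochberg adjustment. The bounds lay where the runs of R5159 ended, so its contrast with R5161 was not free of the values behind them. Between R5159 and R5161 the first A02 stretch differed by 1989 CPM, the first C02 stretch by -2411 CPM and their A share by 8.71 percentage points, each with non-overlapping libraries and an exact p of 0.1, the smallest that 3 against 3 libraries can give (adjusted p = 0.204). Among haplotype 2 accessions R4817 had 20039 ± 590 CPM beyond C02 gene 2700, against 18921 ± 497 CPM in the 6 libraries of R4168 and R4210 (exact permutation p = 0.0238, adjusted p = 0.204). None of the 24 passed the adjustment.

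R5159 had a block of low C02 genes that lay inside the stretch where R5044 was low too. Its best single block against haplotype 2, searched after the windows had been seen, ran from gene 1426 to gene 1674. Over its 135 genes the median difference was -2.90, with 91.1% at or below -1, and outside it -0.20. The edges were placed by these same values, so counts on either side only describe the block. At or below -1 were 19 of 54 genes numbered 1326 to 1425 (median -0.41) and 48 of 51 numbered 1426 to 1525. So were 54 of 59 numbered 1575 to 1674 and 18 of 52 numbered 1675 to 1774 (median -0.52). R5161 had window medians of -0.02, -0.32 and -0.34 over the same 3 windows, 1401 to 1700, where R5159 had -2.95, -2.45 and -2.87. R5044 had -3.28, -2.98 and -3.13 there.

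On A02 the single window of R5159 at or above 0.4 between genes 800 and 1900 was that of genes 1201 to 1300, at 1.36, next to 1.23 in R5044 and 0.19 in R5161. Summed over A02 genes 1201 to 1300, the libraries had 2195, 2259 and 2016 CPM in R5159, against 806, 858 and 885 CPM in R5161 and 742 to 961 CPM in haplotype 2. Summed over C02 genes 1401 to 1700 they had 521, 507 and 430 CPM in R5159 and 515, 613 and 541 CPM in R5044, against 2252, 2372 and 2475 CPM in R5161 and 2187 to 2814 CPM in haplotype 2. No library of R5159 overlapped those of R5161 or of haplotype 2 on either chromosome. The stretches, 104 gene models on A02 and 319 on C02, were picked for the values of R5159. This separation and the A share thus only describe them. The A share of this pair of stretches was 81.6% ± 0.802 in R5159, 74.7% ± 2.42 in R5044 and 26.4% ± 0.122 in R5161, against 24.5% to 26.6% in the means of the haplotype 2 accessions (SD, n = 3 libraries each). Whether these A02 and C02 genes are homoeologs of each other was not tested.

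Set directly against R5161, R5159 was lower in 317 of 2402 C02 members (13.2%) and higher in 247 (10.3%), and on A02 lower in 228 of 1939 (11.8%) and higher in 291 (15.01%), by edgeR at an adjusted p under 0.05. The whole table had 9.92% lower and 11% higher. In C02 genes 1401 to 1700, 105 of 153 tested genes were lower and 4 higher (median log2 fold change -3.87), and in A02 genes 1201 to 1300, 36 of 59 were higher (median 1.18). Without R5044 in the fit 104 of 152 were lower and 4 higher in the C02 genes, and 35 of 58 were higher in the A02 genes. These stretches were picked for their values, so the counts describe them.

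The ratios of single genes differed between the C02 and A02 stretches of R5159 as they did in R5044. Of 108 C02 genes from 1401 to 1700 with at least 1 CPM in R5161, 27 had 0 counts in R5159 and 61 (56.5%) were under 0.125 times R5161, with a median ratio of 0.0665. Of 47 A02 genes from 1201 to 1300, 34 (72.3%) were at 1.5 or more, 0 were under 0.5, and the median was 2.2. On either side of the block the C02 medians were 0.822 over 164 genes from above 1000 to 1400 and 0.982 over 339 genes from 1701 to 2700.

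**Figure D5:**
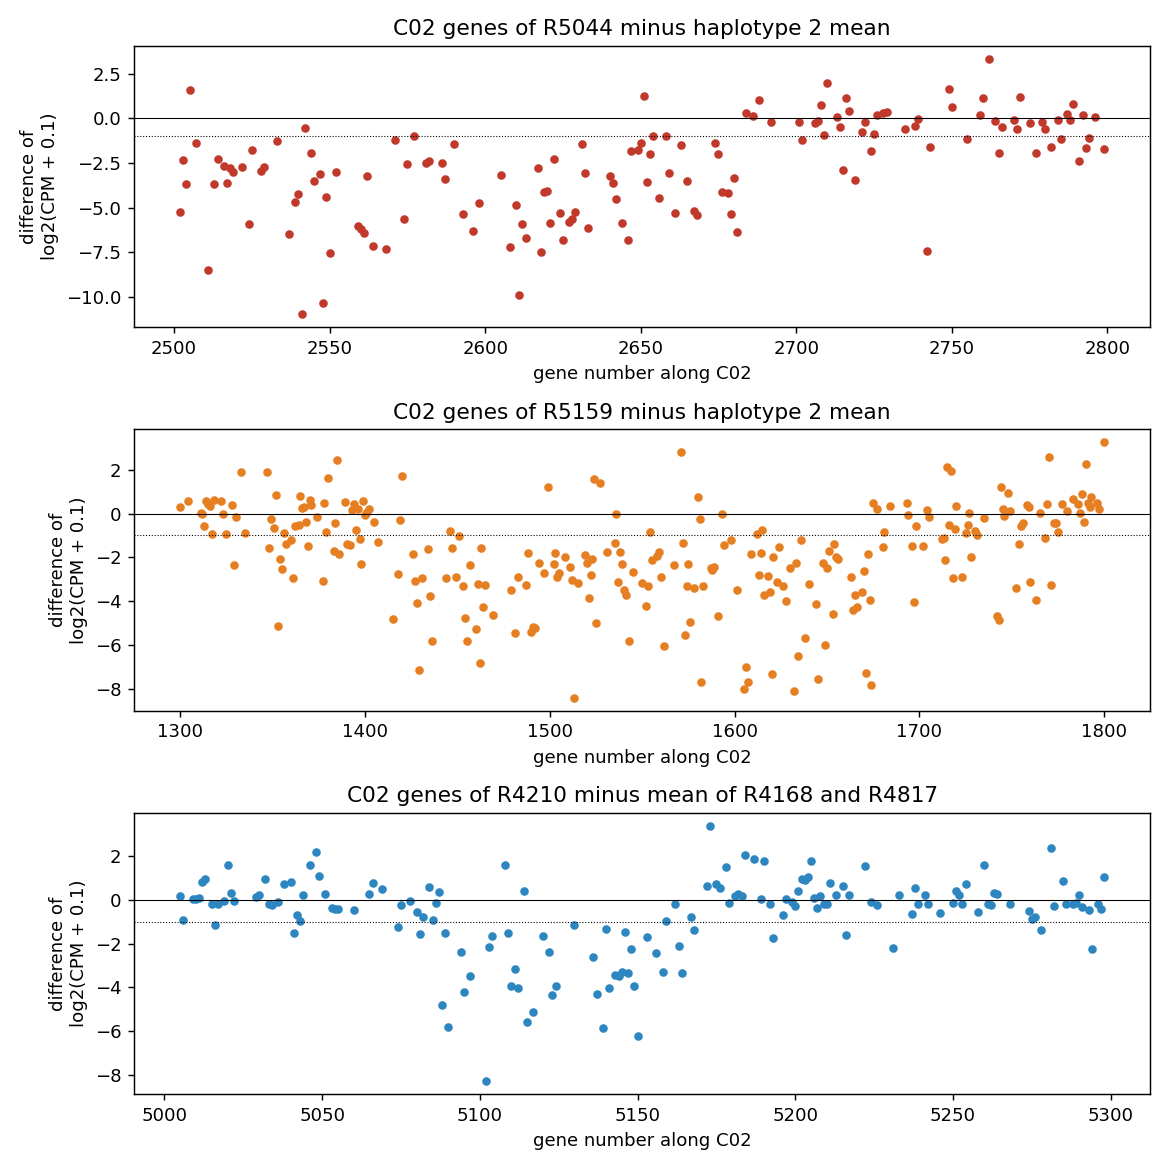
Differences of log2(CPM + 0.1) of single C02 genes against their gene number, for R5044 (top) and R5159 (middle) minus the haplotype 2 mean and for R4210 (bottom) minus the mean of R4168 and R4817, with the dotted line at -1. R5044 steps up between genes 2681 and 2684, R5159 is low from gene 1426 to 1674, and R4210 from gene 5088 to 5158.

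R5161, for which no run began at either bound, had a single window at or below -1 in C02 genes above 1000 to 2700. That was the window of genes 2601 to 2700, at -1.20, after -0.79 in the window before it. Over C02 genes 2501 to 2700 the sum was 963 ± 4.98 CPM in R5161, 1199 ± 61.6 CPM in R5159 and 219 ± 47.2 CPM in R5044, against 3200 ± 120 in R4168, 2017 ± 97.1 in R4210 and 2544 ± 894 in R4817 (SD, n = 3 libraries each). Sums and window medians ranked R5159 differently, since its medians here were -0.11 and -0.45. Over genes 2501 to 2600 alone R4168 summed to 2418 ± 67 CPM, R4210 to 1160 ± 76 CPM and R4817 to 1774 ± 912 CPM. The medians of these 3 accessions in that window were -0.07, -0.10 and 0.22. The stretch of genes 2501 to 2700 was picked for the low values of R5161, so the next counts only describe it. R5159 was higher than R5161 in 34 and lower in 5 of its 99 tested genes (median log2 fold change 0.60), beside 11% and 9.92% in the whole table. Of 72 genes with at least 1 CPM in R5159, 19 were under 0.125 times that level in R5161 and 37 between 0.5 and 1.5, which was the largest class.

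The haplotype 2 accessions differed among themselves by small blocks. R4210 was low in C02 genes 5088 to 5158, with a median of -3.32 against the other 2 over 38 genes, of which 36 were at or below -1. In the 27 genes numbered 5038 to 5087 there were 3 such genes, and in the 33 genes of the next 50 numbers there were 4. Summed over genes 5088 to 5158, the R4210 libraries had 41.2, 46.0 and 45.1 CPM, against 308 to 329 CPM in R4168 and 315 to 339 CPM in R4817. The R5044 libraries had 109, 326 and 223 CPM there, and R5159 and R5161 had 158 to 281 CPM, all above R4210. Of 38 tested genes 33 were lower in R4210 and 1 higher (median log2 fold change -5.22). Of 30 genes with at least 1 CPM in the mean of R4168 and R4817, 9 had 0 counts in R4210 and 21 were under 0.125 times that mean. This block too was picked for its values.

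Over all members, the shares of calls among haplotype 2 accessions were mostly near those of the whole table. R4168 was higher than the mean of the other 2 in 240 of 1939 A02 (12.4%) and 256 of 2402 C02 members (10.7%). It was lower in 202 (10.4%) and 175 (7.29%), where the whole table had 12.7% higher and 10.1% lower. R4210 was higher in 173 A02 (8.92%) and 222 C02 members (9.24%) and lower in 169 (8.72%) and 204 (8.49%), beside 9.62% and 10%. R4817 was higher in 236 (12.2%) and 300 (12.5%) and lower in 151 (7.79%) and 184 (7.66%), beside 12.2% and 6.56% (edgeR adjusted p under 0.05 throughout). Without R5044 in the fit, C02 calls of 2366 tested members were 297 higher and 190 lower in R4168. They were 236 and 237 in R4210 and 311 and 198 in R4817. No share over the whole table is given for that fit. The 3 contrasts share their libraries.

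A search for the best single block of 15 or more genes in each accession gave smaller blocks too, some of them next to the bounds. They were picked for their values and only describe them. R4168 was low in 15 C02 genes from 1068 to 1088 (median -2.46), while its whole window of genes above 1000 to 1100 was at 0.51. Away from the bounds, R4168 was low in 17 A02 genes from 2080 to 2109 (median -1.30). On A02, R4210 was high (median 2.73 over 18 genes from 835 to 865) and R4817 low (median -2.004 over 19 genes from 835 to 866) relative to the other haplotype 2 accessions. Each of these 2 is part of the other's comparison, so they are not separate results. The same holds on C02, where R4817 was high over 43 genes from 5088 to 5167 (median 1.875), across the low block of R4210.

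Near the ends of both chromosomes R5159 and R5161 departed from haplotype 2 in overlapping windows. The R5044 libraries differed from each other there. In its replicates 1 and 3 the sums departed from all haplotype 2 libraries in the same direction, and in replicate 2 they did not. On A02, windows at or above 0.4 fell at genes 3601 to 4100 in R5161, at 3601 to 3800 and 3901 to 4100 in R5159 and at 3901 to 4000 in R5044. The sum over A02 genes 3601 to 4100 was 5796, 3455 and 4565 CPM in replicates 1, 2 and 3 of R5044, 5973 ± 259 CPM in R5159 and 6037 ± 176 CPM in R5161, against 3932 to 4058 CPM in the means of the haplotype 2 accessions. R5044 replicate 2 lay below the haplotype 2 means there, and below the haplotype 2 libraries, which had 3507 to 4348 CPM. On C02, windows at or below -1 fell at genes 5201 to 5400 in R5044 and R5159 and at 5201 to 5300 in R5161. Over C02 genes 5201 to 5400 the R5044 libraries summed to 482, 1431 and 960 CPM, R5159 to 908 ± 74.5 CPM and R5161 to 954 ± 21.9 CPM, against 1445 to 1733 CPM in the means of haplotype 2. The haplotype 2 libraries had 1431 to 2052 CPM, so R5044 replicate 2 lay at the lower edge of their range. R5161 was lowest in genes 5268 to 5326, with a median of -2.66 over 28 genes.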

How the data were processed

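The 18 shoot apex libraries were analysed from 1 table of raw counts per gene model, which the authors deposited without normalization. Per the submitters' processing notes, HISAT2 2.2.1 and featureCounts were used, with build, annotation, strand setting and the handling of multiply aligned reads not given in the sources used here. No column belonged to another series (0 columns with no sample). The members, lists and stretches were chosen with earlier results of these data known.

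CPM was computed on the total counts. Window medians used log2(CPM + 0.1) over genes that passed filterByExpr by accession, in windows of 100 gene numbers holding 15 or more such genes. Tests used R 4.3.3 with edgeR 4.0.16 (quasi-likelihood, TMM, 1 coefficient per accession over all 18 libraries, Benjamini-Hochberg over 58143 genes, adjusted p under 0.05), with DESeq2 1.42.0 as an alternative, and were tested on simulated data. Stretch sums were compared with exact permutation tests (scipy 1.17.1, Python 3.11.15). Change points minimised absolute deviations with at least 20 genes on each side, and blocks held at least 15 genes. Named genes are the 2 lower C02 and 2 higher A02 members called in R5044 against R5159 and R5161 with the highest mean CPM. Of the 8419 members, 0 matched the 123214 entries of the RefSeq table, so sequences and gene roles are not given. Alternatives covered scaling, filters, the test, fold, pseudocount, window width, thresholds, abundant genes, gene models with a dot suffix, left-out libraries and accessions, and the replicate block. The fit without accession R5044, the library comparisons within R5044 and the small blocks were added after seeing the data.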

Additional observations from a re-analysis of the deposited data

How the results depend on the processing

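Calls of members stayed within 1.5 times of the reported count in 57 of 58 alternatives and in all 180 fits with 1 library left out. The exception was a minimum fold of 2, which left 395 A02 calls in R5044 against R5159 and R5161 (297 higher). In the direction of calls single R5044 libraries weighed more: lower A02 calls numbered 104 without replicate 2, 120 without replicate 3 and 296 without replicate 1, and higher C02 calls 241 without replicate 1. No share over the whole table is given for these fits. The replicate numbers do not pair the samples: over 45 same-numbered library pairs the correlation of deviations was -0.153 to 0.221 (median 0.00319, 2 above 0.1). With the replicate block, R5044 calls were 633 on A02 and 844 on C02, and the block ended no reported call of a named gene. The A02 run of R5044 ended at 1300 with a pseudocount of 1 or thresholds of -2 and 0.6, 1550 with windows of 50, 900 with no filter and 1500 without replicate 2 (1500 to 2000 with 1 library left out). Its change point with no filter was 1896. With a pseudocount of 1 the C02 run of R5044 had no length (0), since its window next to the bound missed the threshold, and with windows of 50 the A02 run of R5159 ended at 850. Stretch differences that failed the test anyway changed sign. With TMM-scaled sizes these were R4817 in the first A02 stretch (-117.3 CPM), R4168 in the rest of A02 (17.8 CPM) and R4210 in the rest of C02 (67.6 CPM). Without the 10 most abundant genes of each stretch, R4168 and R4210 turned in the first C02 stretch (-195.1 and 245.8 CPM) and in its A share (1.12 and -1.55 points), R4210 and R4817 in the rest of A02 (-219.3 and 428.0 CPM), and R5159 minus R5161 in the later A share (0.196 points). The A shares then moved to 87.3% in R5044, 47.3% in R5159, 38.4% in R5161, 39.7% in R4168 and 37.9% in R4210 in the first stretches, and to 50.7% in R5161, 47.9% in R4168, 47.4% in R4210 and 46.4% in R4817 in the rest. With 1 library left out, the differences that changed sign ranged as follows. R5159 minus R5161 spanned -74.9 to 432.3 CPM in the rest of C02 and -0.487 to 0.1997 points in the later A share. R4817 spanned -119.7 to 315.0 CPM in the first A02 stretch, -1057 to 201.9 CPM in the first C02 stretch and -83.0 to 20.5 CPM in the rest of A02. R4210 spanned -398.2 to 81.8 CPM in the rest of C02 and -0.042 to 0.436 points in the first A share. The causes were not tested. A gene at 0 counts is only below what this depth can show.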
